A study of Mus musculus with 6 samples.

Results

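Nefm, the gene of the medium neurofilament subunit, was examined in fetal ovaries together with 8 other genes of neurons, namely Nefl, Nefh, Ina, Prph, Gap43, Stmn2, Th and Dbh. Nefm was chosen by its p-value, one of the lowest of the series (2nd among 20167 tested genes), in the comparison of exposed with control ovaries, so its difference between the groups is a description here and carries no test. The other 8 genes were taken because they are neuron genes, in order to see whether they followed Nefm. Earlier results of these data were known when these 8 genes were chosen. All 9 of them, out of 48709 genes in the count table, were matched by their Ensembl identifiers and passed the filter on low counts.

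The ovaries came from 13.5 dpc (days post coitum) embryos of CD1 mice with no genetic modification named. The exposed group, called APAP+IBU, came from dams that received acetaminophen (APAP, 30 mg/kg per day) and ibuprofen (IBU, 15 mg/kg per day) by gavage, the drugs in alternation, at 4 gavages per day spaced by 3 h, from 10.5 to 13.5 dpc. Control dams received the ethanol vehicle. There were 3 libraries of polyadenylated RNA per group, each from its own pool of gonads of several embryos, and any nerve, ganglion or adrenal tissue left on the gonads would be part of the pool.

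Neurofilaments are intermediate filaments that fill axons and are built from light, medium and heavy chains together with alpha-internexin or, in peripheral neurons, peripherin. GAP43 and stathmin-2 are proteins of the growing axon tip. Autonomic nerves reach the gonad from sympathetic ganglia, which share a neural crest origin with the chromaffin cells of the adrenal medulla, and both cell types make catecholamines through tyrosine hydroxylase and dopamine beta-hydroxylase. In RNA from whole gonads, fewer neurons or axons and less RNA per cell cannot be told apart.

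RefSeq (GRCm38.p6) gave the bases upstream of the start for 4 of the 9 members, and promoter sequence is shown for these. They are Prph, which did not overlap between the groups below, Ina, which did overlap, and Th and Dbh, which varied widely within each group. Nefm, Nefl, Gap43 and Stmn2, which did not overlap either, had no entry, nor did Nefh. The windows are Th, chr7:142899996-142900245 (minus strand), Prph, chr15:99054924-99055173 (plus strand), and Ina, chr19:47014431-47014680 (plus strand), each of 250 bases. GENCODE places the first exon of Dbh over its RefSeq window, so only 30 bases of it are shown, chr2:27165345-27165374 (plus strand). Capitals mark matches to a cyclic AMP response element (TGACGTCA), to the homeodomain core ATTA and to the TATA box TATAAA on either strand, and the motifs do not overlap each other in these windows.
Th: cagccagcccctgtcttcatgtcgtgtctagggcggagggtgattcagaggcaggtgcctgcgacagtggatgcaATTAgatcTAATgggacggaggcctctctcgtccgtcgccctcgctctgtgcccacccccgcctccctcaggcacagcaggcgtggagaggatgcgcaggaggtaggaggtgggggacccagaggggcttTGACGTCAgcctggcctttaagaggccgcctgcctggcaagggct
Dbh: gtgtcATTAgtgccaATTAggggagatgtg
Prph: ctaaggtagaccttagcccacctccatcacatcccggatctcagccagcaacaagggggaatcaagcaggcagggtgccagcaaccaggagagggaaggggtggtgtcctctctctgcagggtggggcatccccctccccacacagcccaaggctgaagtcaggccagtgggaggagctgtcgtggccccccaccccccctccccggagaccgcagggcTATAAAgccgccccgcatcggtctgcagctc
Ina: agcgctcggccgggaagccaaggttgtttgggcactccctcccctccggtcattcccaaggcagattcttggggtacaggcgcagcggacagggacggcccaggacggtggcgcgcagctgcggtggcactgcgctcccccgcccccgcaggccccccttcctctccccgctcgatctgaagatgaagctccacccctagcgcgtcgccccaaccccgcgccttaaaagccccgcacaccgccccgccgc
The response element began 45 bases before the start of Th and is present in 1.55% of 32851 mouse promoter windows of the same length. Th held 2 ATTA cores and the whole Dbh window held 3, and 54.9% of the windows hold at least 1. The TATA box began 31 bases before the start of Prph and is found in 12.4% of the windows. No match to these letters was present in the Ina window. A match describes the letters alone, not binding.

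Total counts per library ran from 37811968 to 48954631, so that 1 count was worth 0.0197 to 0.0268 CPM (counts scaled to a common library size). The ovarian markers were high, with Wt1 of the gonadal somatic cells at 251 to 301 CPM and Dazl of the germ cells at 368 to 592 CPM. The pregranulosa marker Foxl2 was lower, at 0.944 to 8.16 CPM. The summed level of 12 liver genes was highest in replicate 3 of each group and ran from 263 to 2010 CPM in control and from 194 to 3268 CPM in APAP+IBU libraries. Of 15 sperm genes, a list known from earlier results to differ, 14 were lower without overlap in APAP+IBU libraries, beside 5.92% of tested genes. The part of these sperm genes in the results below was not tested.

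Nefm (ENSMUSG00000022054, minus strand of chr14:68082590-68124846) was at 26.0, 26.3 and 32.8 CPM in control replicates 1, 2 and 3 and at 10.5, 7.88 and 8.41 CPM in APAP+IBU replicates 1, 2 and 3. The lowest control library was thus well above the highest exposed one. The control mean of 28.4 ± 3.83 CPM (SD, n = 3) compared with 8.94 ± 1.40 CPM (SD, n = 3) after exposure, 3.17-fold lower, and the fitted log2 fold change was -1.67 (standard error 0.18). These means rest on 323 to 1423 counts per library. Nefm carries a long phosphorylated tail that sets the spacing of filaments in the axon.

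Nefl (plus strand of chr14:68083863-68089095), which encodes the light chain that forms the filament core, was at 7.03, 10.3 and 11.6 CPM in control and 5.38, 3.52 and 4.56 CPM in APAP+IBU libraries. The groups did not overlap, although control replicate 1 lay near the exposed libraries. Its log2 fold change was -1.10 (standard error 0.26), with p = 0.33 after Benjamini-Hochberg adjustment over all tested genes in edgeR's quasi-likelihood test and an exact permutation p of 0.1, the smallest that 3 against 3 libraries can give. Nefl is not independent of Nefm in position, because the genes lie on opposite strands and share 5233 bases, of which 1108 are exonic in both. Of the 50-base stretches of the exons, 31.8% in Nefl and 18.6% in Nefm are found in antisense in another gene, and the strand setting of the counting is not given in the sources used here. Reads from these stretches cannot be told apart if strand was ignored.

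Nefh (minus strand of chr11:4938754-4948064), the heavy chain that joins the filament late in axon maturation, was at 13.0, 11.1 and 9.40 CPM in control and 8.69, 9.02 and 10.5 CPM in APAP+IBU libraries. The ranges overlapped and the log2 fold change was -0.25 (standard error 0.19, edgeR adjusted p = 0.709, exact permutation p = 0.2).

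Ina (plus strand of chr19:47014698-47025327) encodes alpha-internexin, an early neuronal filament protein. Its level was 7.92, 7.55 and 6.38 CPM in control and 6.07, 8.41 and 6.30 CPM in APAP+IBU libraries. The highest and the lowest library were both exposed, and the log2 fold change was -0.07 (standard error 0.21, edgeR adjusted p = 0.913, exact permutation p = 0.8). Part of its reads could belong to Nt5c2, which covers 456 exonic bases of Ina on the other strand.

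Prph (plus strand of chr15:99055174-99058978) encodes peripherin, the filament protein of peripheral and autonomic neurons. It was at 1.76, 2.25 and 1.77 CPM in control and 0.729, 0.808 and 1.07 CPM in APAP+IBU libraries. All exposed libraries lay below all controls, on 37 to 84 counts per library. The log2 fold change was -1.15 (standard error 0.29, edgeR adjusted p = 0.416, exact permutation p = 0.1).

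**Figure D1:**
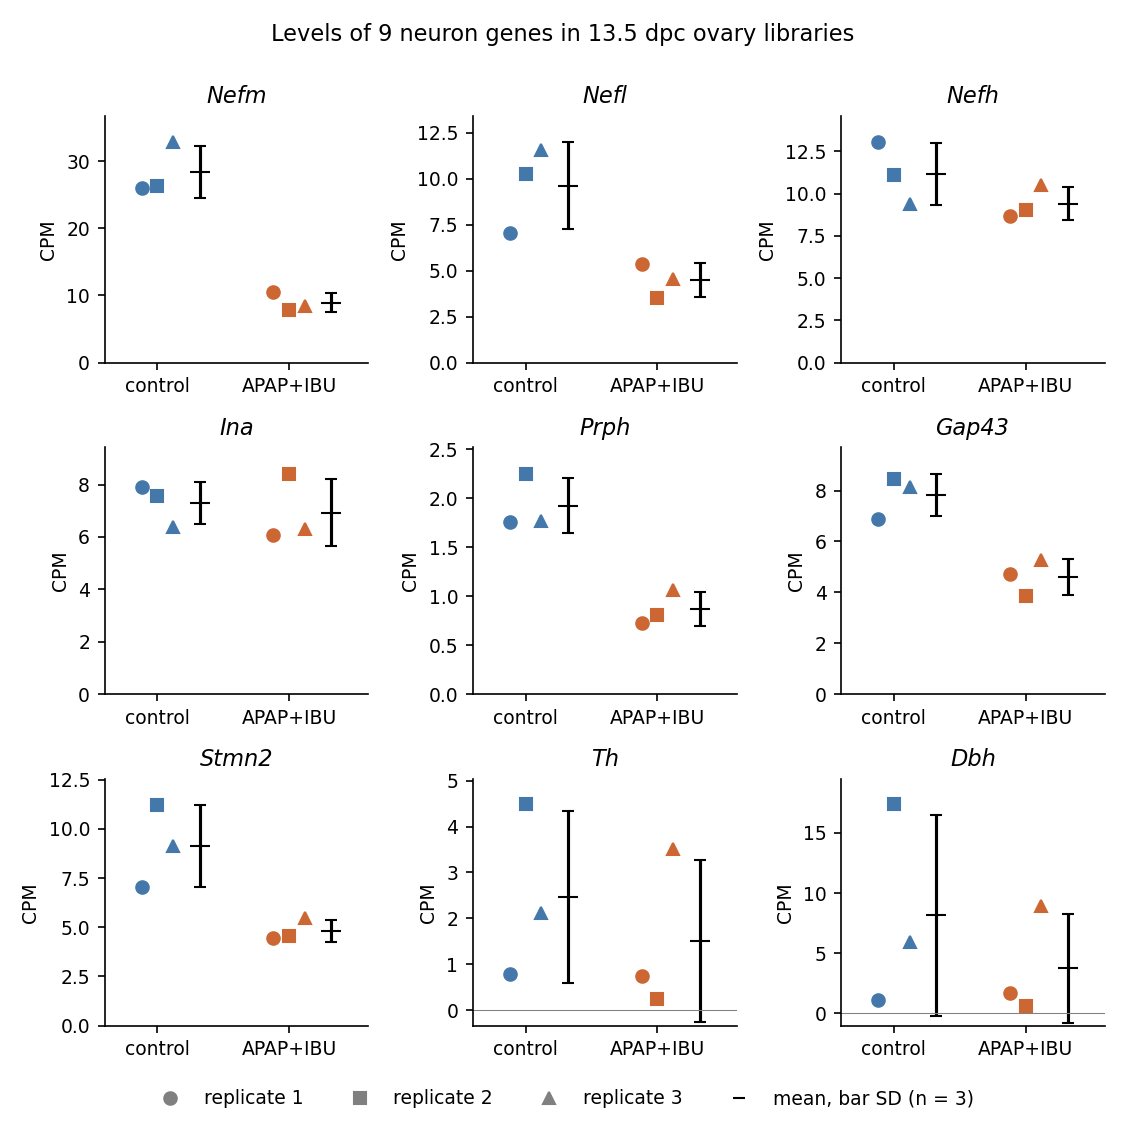
Level of each of the 9 genes in CPM (TMM-scaled; vertical axis, a separate linear scale per gene) in control (blue) and APAP+IBU (orange) ovary libraries, with a symbol per replicate and the mean and SD (n = 3) beside the points. Nefm, Nefl, Prph, Gap43 and Stmn2 do not overlap between the groups, Nefh and Ina do, and Th and Dbh spread widely within both groups, with Dbh from 1.13 to 17.4 CPM among controls.

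The filament genes were also set beside each other per kilobase of exon, a scale on which levels of different genes can be compared. Nefm stood at 4.49, 4.56 and 5.67 CPM per kb in control libraries, above Nefh in each of them, where Nefh stood at 3.26, 2.78 and 2.35. In APAP+IBU libraries Nefm stood at 1.82, 1.36 and 1.45 CPM per kb, below Nefh in each, at 2.18, 2.26 and 2.64. The order of the medium and heavy chains thus differed between the groups in every library, a description since Nefm was chosen for its change. Within one library the ratio of CPM does not depend on the scaling between libraries. The ratio of Prph to Ina was 0.222, 0.298 and 0.278 in control and 0.120, 0.0961 and 0.169 in APAP+IBU libraries. It repeats the lower level of Prph, since Ina changed little (log2 fold change -0.07). The ratio of Nefl to Nefh overlapped, at 0.539, 0.928 and 1.23 against 0.619, 0.390 and 0.432. So did the ratios of Dbh to Th and of Stmn2 to its relative Stmn1.

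Over all members, the mean level per kilobase in controls was highest for Gap43 (5.13 ± 0.547 CPM per kb, SD, n = 3), next to Nefm (4.91 ± 0.662) and within its spread. Dbh, Nefl, Nefh and Ina followed between 3.03 and 2.25 CPM per kb, then Stmn2 (1.63 ± 0.372), Th (1.04 ± 0.795) and Prph (0.964 ± 0.140). Dbh, Nefl and Nefh differed from each other by less than their SDs, as did Th and Prph. In APAP+IBU ovaries Gap43 remained highest by its mean (3.03 ± 0.461 CPM per kb), Nefh and Ina came next at 2.36 and 2.14, and Nefm was at 1.55 ± 0.242, close to Dbh (1.39) and Nefl (1.33). Stmn2 (0.859), Th (0.635) and Prph (0.434) again stood last.

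Gap43 (minus strand of chr16:42248442-42340651), a membrane-bound protein of the growth cone, was at 6.87, 8.43 and 8.15 CPM in control and 4.71, 3.86 and 5.26 CPM in APAP+IBU libraries. The groups were apart and its log2 fold change was -0.76 (standard error 0.21, edgeR adjusted p = 0.537, exact permutation p = 0.1). Stmn2 (plus strand of chr3:8509360-8561606), which binds tubulin in growing axons, was at 7.03, 11.2 and 9.12 CPM in control and 4.44, 4.54 and 5.47 CPM in APAP+IBU libraries. It did not overlap either and its log2 fold change was -0.92 (standard error 0.23, edgeR adjusted p = 0.398, exact permutation p = 0.1).

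The catecholamine enzymes overlapped between the groups, as Nefh and Ina did, but varied far more within each group. Th (minus strand of chr7:142892752-142931128), the rate-limiting enzyme of catecholamine synthesis, was at 0.787, 4.50 and 2.12 CPM in control and 0.749, 0.240 and 3.51 CPM in APAP+IBU libraries. The ranges overlapped, and the exposed libraries differed from each other 14.6-fold. Its log2 fold change was -0.73 (standard error 0.92, edgeR adjusted p = 0.792, exact permutation p = 0.4). Only 0.902% of tested genes had a larger SD of log2 CPM within groups than the 1.59 of Th.

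Dbh (plus strand of chr2:27165233-27183200), which turns dopamine into noradrenaline, was at 1.13, 17.4 and 5.94 CPM in control and 1.66, 0.611 and 8.93 CPM in APAP+IBU libraries. Control libraries differed 15.4-fold and exposed libraries 14.6-fold, so the spread within each group exceeded the difference between them. The log2 fold change was -1.14 (standard error 1.08, edgeR adjusted p = 0.746, exact permutation p = 0.5). Its SD of log2 CPM within groups was 1.95, against a median of 0.29 over tested genes. Without control replicate 2, the library with the highest level of both enzymes, the log2 fold changes were 0.03 for Th and 0.07 for Dbh. Without APAP+IBU replicate 3, the exposed library highest in both, they were -2.32 for Th and -2.86 for Dbh, with edgeR adjusted p = 0.42 and 0.424.

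Both enzymes ordered the libraries in nearly the same way, with control replicate 2, APAP+IBU replicate 3 and control replicate 3 on top and APAP+IBU replicate 2 last. Control replicate 2 and APAP+IBU replicate 3 were also highest for the chromogranin genes, which were picked after their values were seen. Chgb, a protein of catecholamine granules, was at 1.78, 33.0 and 8.82 CPM in control and 2.90, 0.480 and 21.4 CPM in APAP+IBU libraries. Chga was at 2.99, 8.27 and 2.37 CPM in control and 1.66, 1.004 and 7.34 CPM in APAP+IBU libraries, and Phox2a, a transcription factor of noradrenergic neurons that was also picked afterwards, at 1.65, 2.81 and 1.45 against 0.592, 0.524 and 2.03 CPM. Pnmt, which makes adrenaline in chromaffin cells, was at 0.138 to 0.420 CPM. The adrenal cortex list had 7 of its 8 genes tested. Of these, 1 was lower at an unadjusted p under 0.05 in edgeR, beside 3.21% of all tested genes. This was Cyp21a1, the steroid 21-hydroxylase, at 1.23, 1.98 and 0.645 CPM in control and 0.296, 0.262 and 0.416 CPM in APAP+IBU libraries. The summed level of the adrenal cortex list was 41.1, 63.3 and 33.7 CPM in control and 38.6, 35.5 and 37.4 CPM in APAP+IBU libraries. It was highest in control replicate 2, while APAP+IBU replicate 3 lay below APAP+IBU replicate 1 and control replicate 1. Cyp11b1, another adrenal cortex enzyme, reached no more than 0.589 CPM. Whether attached ganglion or adrenal tissue had a part in these levels was not tested.

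**Figure D2:**
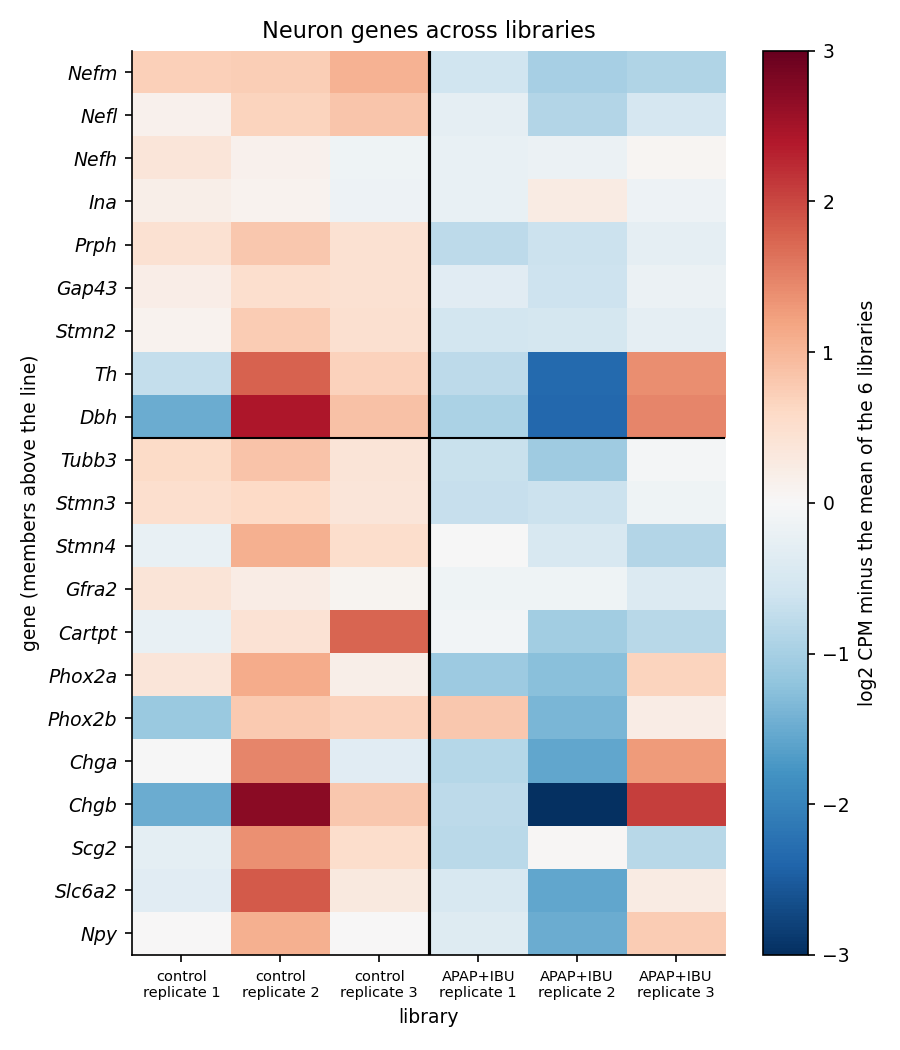
Difference in log2 CPM from each gene's mean over the 6 libraries (colour scale; red above, blue below the mean) for the 9 genes (above the line) and for 12 other neuron genes, most of them picked after their values were seen, with libraries as columns. Dbh and Th are high in control replicate 2 and APAP+IBU replicate 3 together with Chgb and Chga, while Nefm is above its mean in all 3 control libraries and below it in all 3 APAP+IBU libraries.

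None of the 8 genes besides Nefm had an adjusted p under 0.05 in edgeR, as was true of every tested gene (0% of 20167). At an unadjusted p under 0.05, 4 of the 8 were lower (Nefl, Prph, Gap43 and Stmn2) and 0 were higher, where the background was 3.21% of tested genes lower and 3% higher, 6.22% together. The same 4 genes were lower without overlap of the groups, as were 5.92% of tested genes, while 4.78% were higher without overlap. All 8 had a negative log2 fold change, with a median of -0.84, beside -0.0047 over all tested genes, of which 10205 were negative. The 8 genes were chosen with earlier results of these data known, were read in the same 6 libraries and are not independent observations.

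**Figure D3:**
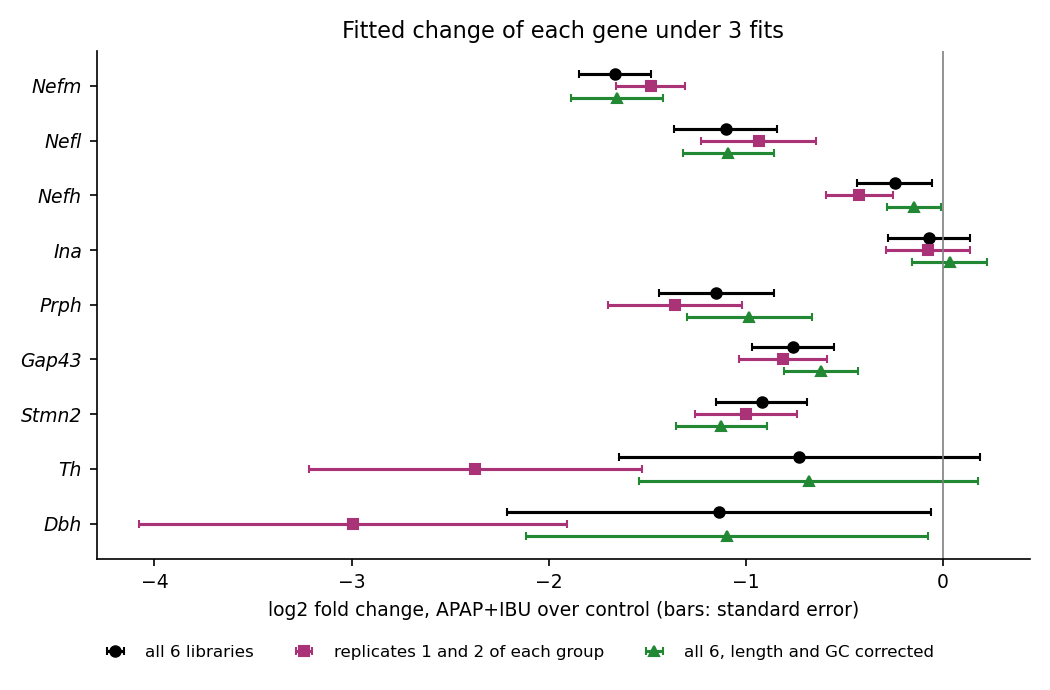
Log2 fold change of APAP+IBU against control ovaries (horizontal axis) for each of the 9 genes with its standard error, from edgeR's fit to all 6 libraries from replicates 1 and 2 of each group only, and after the correction for length and GC. Values for Nefm run from -1.67 with all libraries to -1.48 with replicates 1 and 2, while Th and Dbh move from -0.73 and -1.14 to -2.37 and -2.99.

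The calls depended on the libraries and on the tool. With replicates 1 and 2 of each group, and thus without the libraries highest in liver genes, 3 of the 8 genes fell at an adjusted p under 0.05 in edgeR, where 27.2% of 20633 tested genes passed and 12.9% passed as lower. These were Prph (log2 fold change -1.36, adjusted p = 0.026), Stmn2 (-1.0004, adjusted p = 0.0292) and Gap43 (-0.81, adjusted p = 0.0358). Nefl (-0.94, adjusted p = 0.0512) and Nefh (-0.43, adjusted p = 0.104) did not pass there. Th (-2.37, adjusted p = 0.0756) and Dbh (-2.99, adjusted p = 0.0797) did not pass either, although they had the most negative log2 fold changes of the set. DESeq2 on all 6 libraries called 0.952% of tested genes, 0.858% as lower, and 3 of the 8 were among them. These were Nefl (adjusted p = 0.0088), Stmn2 (adjusted p = 0.0175) and Gap43 (adjusted p = 0.0424), and Prph was at 0.0667. Without control replicate 3, edgeR called 5.16% of genes, 2.26% as lower, and 0 of the 8. The 4 genes kept a negative sign under all alternatives run, with Nefl between -1.29 and -0.94 and Stmn2 between -1.13 and -0.75.

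The other genes of neurons were taken from 7 lists with 108 genes in all, of which 107 were found in the table and 88 were tested. At an unadjusted p under 0.05 in edgeR, 4 of the 88 were lower and 0 were higher, beside 3.21% and 3% of all tested genes. After adjustment 0 passed, as over all tested genes. Their median log2 fold change was -0.17, and 58 of the 88 were negative. Among 30 general neuron genes, 2 were lower, and the median was -0.11. One of the pair was Tubb3, the neuronal beta-tubulin, at 8.26, 10.1 and 7.28 CPM in control and 3.51, 2.64 and 5.36 CPM in APAP+IBU libraries. Its groups did not overlap, and the log2 fold change was -1.16 (standard error 0.29, edgeR adjusted p = 0.416). Tubb3 passed in DESeq2 (adjusted p = 0.0155) and with replicates 1 and 2 only (-1.55, edgeR adjusted p = 0.00717). Of the 88 genes, DESeq2 called 1 as lower and 0 as higher, and replicates 1 and 2 gave 11 lower and 5 higher at the adjusted threshold. Over all tested genes, DESeq2 called 0.858% as lower. Replicates 1 and 2 called 12.9% as lower and 27.2% in both directions together, so these counts do not set the 88 genes apart. The other lower gene of the list was Stmn3, a relative of Stmn2, at a lower level of 0.806 to 0.964 CPM in control and 0.375 to 0.573 CPM in APAP+IBU libraries.

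The lists of autonomic transcription factors and of catecholamine genes held no gene past the unadjusted threshold, which 6.22% of all tested genes passed, 3.21% as lower. Of 12 tested transcription factors of autonomic neurons, 10 were negative and the median was -0.34, and of 15 genes of catecholamine synthesis and storage besides the enzymes above, 12 were negative and the median was -0.28. Of the cholinergic and peptidergic list of autonomic neurons, 3 of 11 were tested, with a median of -0.57. Among them 1 was lower at an unadjusted p under 0.05 in edgeR, the neuropeptide gene Cartpt. Its groups overlapped (0.210, 0.348 and 0.898 against 0.237, 0.109 and 0.130 CPM). Of 18 receptors and channels, 1 was lower, Gfra2, the receptor subunit for neurturin, at 19.0 to 23.4 CPM in control and 13.7 to 16.4 CPM in APAP+IBU libraries. The sensory list (7 tested of 10, median 0.02) and the list of motor and central neurons (3 tested of 10, median 0.04) had 0 genes past the unadjusted threshold.

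Genes of the cells and proteins around the axon were mixed. Of 13 tested genes of Schwann cell precursors and neural crest, 2 were lower at an unadjusted p under 0.05, Dhh and Tfap2b. The median was -0.12. Over all tested genes, 3.21% were lower and 3% higher at this threshold, the share to set beside each count in this paragraph. Of 13 ligands that guide or feed autonomic axons 0 passed, and of 8 endothelial genes 0 passed. Among 10 intermediate filament genes of other cells, Nes, which encodes the progenitor filament nestin, was lower at 105 to 134 CPM in control and 76.3 to 92.7 CPM in APAP+IBU libraries. The median of that list was -0.38. Of the other cell types that a gonad pool could hold, the lists of the mesonephros (10 genes) and of germ cells (8 genes) had 1 gene each that was lower, the erythroid list (12 genes) had 3, and the muscle and cartilage list (8 tested) had 0.

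Of 12 partners of neurofilaments and growth cones, 1 was lower and 2 were higher at the unadjusted threshold, beside 3.21% and 3% of all tested genes. Dst, a linker of filaments to the rest of the cytoskeleton, was at 97.97, 103 and 106 CPM in control and 170, 159 and 174 CPM in APAP+IBU libraries. The groups were far apart in the direction opposite to Nefm, and the log2 fold change was 0.71 (standard error 0.11, edgeR adjusted p = 0.0978). Dst passed in DESeq2 (adjusted p = 3.88e-06) and with replicates 1 and 2 only (edgeR adjusted p = 0.00625). After a correction of every library for length and GC the value for Dst was 0.35 (edgeR adjusted p = 0.53). Under the same correction Nefm was at -1.65, a description, and Nefl at -1.09. Prph moved from -1.15 to -0.98, Gap43 from -0.76 to -0.62, Ina from -0.07 to 0.03 and Stmn2 from -0.92 to -1.13. Myo5a, a motor that binds the light chain, was the other higher gene, with overlapping groups (62.8 to 111 against 98.6 to 136 CPM). Stmn1, the widespread relative of Stmn2, was lower, with overlapping groups (331 to 488 against 285 to 343 CPM).

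**Figure D4:**
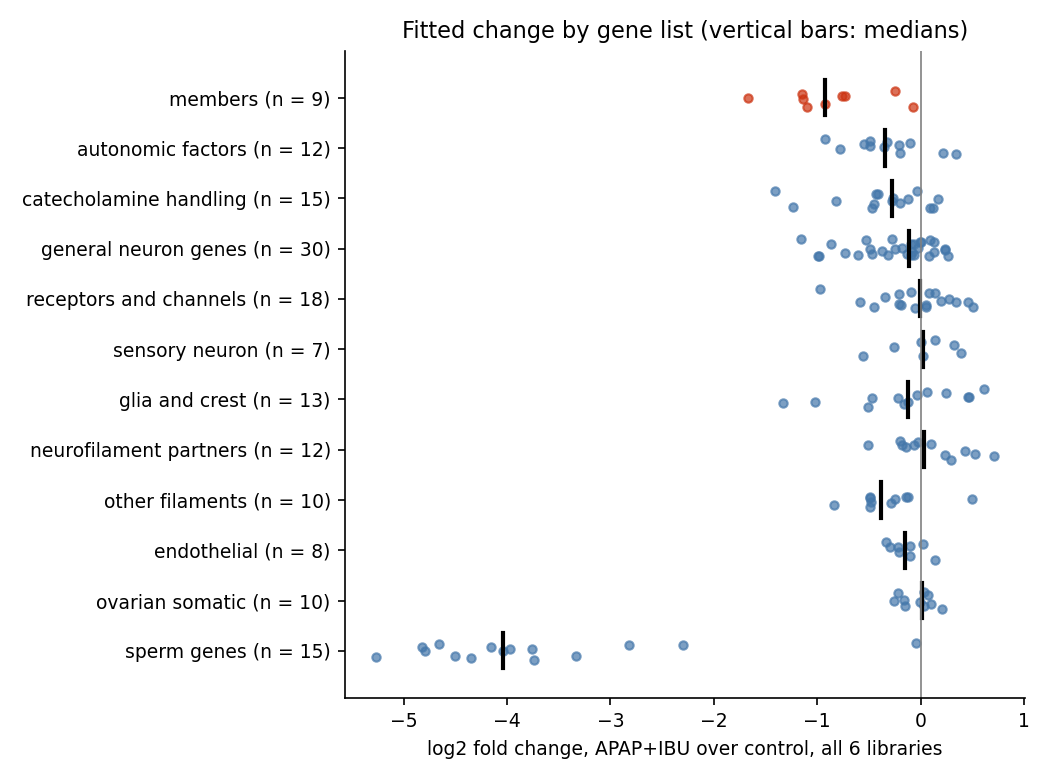
Log2 fold change of APAP+IBU against control ovaries (horizontal axis) for each tested gene of 12 gene sets (vertical axis), a point per gene with the median as a vertical bar; the 9 members, Nefm included, are in red. The 5 neuron lists below the members have medians from -0.34 to 0.02, and the sperm genes lie far below with a median of -4.04.

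Likeness to Nefm was measured as Pearson's r of log2 CPM over the 6 libraries, which share the division into exposed and control, so that any gene that differs between the groups scores high. The 5 most alike of the tested genes were Thumpd1 (r = 0.989), Cx3cr1 (0.987), Csnka2ip (0.985), Hsd17b12 (0.983) and Gja5 (0.982). Nefl ranked 56th (r = 0.944), Gap43 84th (0.935), Prph 230th (0.895) and Stmn2 295th (0.879). Nefh (0.477), Th (0.417), Dbh (0.370) and Ina (0.0663) were far down the list.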

How the data were processed

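RNA of 13.5 dpc CD1 ovaries was sequenced in 3 control and 3 APAP+IBU libraries. The authors mapped stranded reads to mm10 with TopHat2 2.0.14 and Bowtie2 2.1.0, counted them per gene of Ensembl release 86 with HTSeq 0.6.1, and deposited raw counts of 48709 genes without normalisation. Their strand setting is not given in the sources used here. Titles of exposed samples give only IBU, but the exposure label gives both drugs.

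The counts were analysed in R 4.3.3 by edgeR 4.0.16, using TMM scaling, its expression filter (20167 genes kept) and its quasi-likelihood test, with Benjamini-Hochberg adjustment. Log2 CPM used a prior count of 1. DESeq2 1.42.0, other scalings and filters, a replicate block, a loess correction for length and GC content (span 0.3, 20103 genes), the liver list as a covariate and left-out libraries were alternatives. Names, lengths and positions came from GENCODE M21 on GRCm38, the assembly of mm10. The edgeR test was tried on simulated counts that had the same dispersion for every gene. That trial does not cover genes as variable between libraries as Th and Dbh.

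Members and lists were chosen with earlier results of these data known. The naming rule took the 9 members, the genes of each list at an unadjusted p under 0.05 or with its highest mean level, and the 5 genes most like Nefm. Of the list genes, those that no result turns on are given by counts only, and 1 is not reported here. Chga, Chgb, Phox2a, Pnmt, Cyp11b1 and Foxl2 were named after their values were seen. Libraries of a group differed beyond sampling noise (chi-square per degree of freedom 17.2 to 143). Total counts were 37811968 to 48954631, and p-values measure the spread between pools.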

Additional observations from a re-analysis of the deposited data

How the results depend on the processing

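With all 6 libraries, edgeR gave 0 genes at an adjusted p under 0.05 and 1254 at an unadjusted p under 0.05. At the adjusted threshold the number was 120 with all genes that had at least 1 count, 192 with DESeq2, 5607 with replicates 1 and 2 only, 2 with the replicate block, and 0 to 1064 when a library was left out, the highest without control replicate 3. At the unadjusted threshold it was 2346 with all genes that had at least 1 count, 1889 after the length and GC correction, 8451 with replicates 1 and 2 only, 681 with the replicate block and 580 to 6294 when a library was left out. Among the 8 genes besides Nefm, DESeq2 and the fit to replicates 1 and 2 each gave 3 at the adjusted threshold, and the latter 7 at the unadjusted one, where 4 passed with all libraries. Leaving out a library gave 4 to 6, with Th and Dbh added without APAP+IBU replicate 3. The cause was not tested.

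Of 128 values of the 8 genes besides Nefm under alternatives, 118 kept their direction and their side of the threshold, 6 passed it only under the alternative and 4 turned sign. Ina turned after the length and GC correction (0.0326). The other turns of sign came with a library left out, for Ina (-0.24 to 0.0047), Th (-2.32 to 0.0306) and Dbh (-2.86 to 0.0683). The sign turned without APAP+IBU replicate 1 for Ina and without control replicate 2 for Th and Dbh. Nefm lay between -1.81 and -1.48 under the 16 alternatives, a description alone since it was chosen from this contrast. The replicate block changed no call of a member. Same-numbered pools hold different embryos, and their deviations correlated at -0.07, -0.02 and -0.04. The paper describes independent experiments that each held both conditions, but the labels do not say which pools shared one. Whether same-numbered pools came from one experiment is therefore not known here, and the correlations do not settle it. The median of all genes moved by less than 0.1 on the log2 scale under every scaling. Prph (37 to 84 counts per library) and Th (11 to 168) rest on the fewest reads.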
